A study of Mus musculus with 12 samples.

Results

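The genes described here are 10 immediate early genes that serve as markers of neuronal activity. They are the AP-1 subunit genes Fos, Fosb and Junb, the zinc finger factor genes Egr1, Egr2, Egr3 and Egr4, the nuclear receptor gene Nr4a1, the neuronal transcription factor gene Npas4 and the synaptic gene Arc. They were taken by symbol, with transcript values summed per symbol, and are 10 of the 23183 gene symbols measured. All 10 had enough counts to be tested, among 14541 genes that did. The RNA came from the ventral hippocampus, a region tied to emotional behaviour, of 12 male wild-type C57BL/6J mice that entered the study at 8 weeks of age, with 3 mice in each of 4 groups. SES mice, the effective responders, were stress-susceptible animals that improved in behaviour tests after free use of a running wheel. SER mice, the ineffective responders, had the same treatment and showed little or no improvement. SS mice were susceptible to the same stress and stayed sedentary. C mice were untreated. The stress, shared by SES, SER and SS, was restraint in a tube for 2 hours a day on 14 days. Wheel running lasted 14 days by the sample titles and 4 weeks by the protocol, and the difference could not be settled. SES and SER mice were sorted by their behaviour and not assigned at random. The time between the last restraint, run or behaviour test and tissue collection is not given in the sources used here.

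Immediate early genes are transcribed from factors already present in the cell, so their RNA rises soon after a stimulus and then decays quickly. In neurons, calcium entry through synaptic receptors and voltage-gated channels activates kinases that act on CREB, on SRF with its partners and on MEF2, which bind the promoters and enhancers of these genes. Most of their products are transcription factors that switch on a later set of genes such as Bdnf. Arc instead acts at synapses, where it promotes removal of AMPA receptors. In the hippocampus their RNA is widely used to mark cells that were recently active during exploration, learning, stress or seizures.

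The bases just before the transcription start of 4 of the genes are shown because CREB and SRF sites in such promoters are the textbook route from calcium to these genes. The promoter search covered 7 of the 10 genes, namely Fos, Fosb, Junb, Egr2, Egr4, Nr4a1 and Npas4. It used the RefSeq promoter table (GRCm38.p6, the build also called mm10). Egr3 and Arc had no entry there, and Egr1 was left out of the search. The motif counts below thus say nothing of Egr1, Egr3 or Arc. Each sequence runs 5′ to 3′ along the gene's strand and ends at the base before the start site. Capitals mark half-sites of the cAMP response element bound by CREB (TGACG or CGTCA), an EGR site (GCGNGGGCG on either strand, the motif bound by Egr proteins) and a CArG box, the motif of SRF.
Fos (chr12:85473760-85473889, plus strand): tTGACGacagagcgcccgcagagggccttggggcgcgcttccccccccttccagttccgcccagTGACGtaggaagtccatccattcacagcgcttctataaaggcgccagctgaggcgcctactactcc
Nr4a1 (chr15:101266716-101266845, plus strand): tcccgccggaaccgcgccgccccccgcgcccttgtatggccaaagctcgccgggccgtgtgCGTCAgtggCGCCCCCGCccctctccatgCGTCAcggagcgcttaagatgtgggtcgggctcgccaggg
Egr2 (chr10:67537739-67537868, plus strand): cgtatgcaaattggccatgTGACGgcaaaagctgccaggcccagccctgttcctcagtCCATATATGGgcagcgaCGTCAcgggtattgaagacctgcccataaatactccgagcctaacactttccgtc
Fosb (chr7:19310046-19310175, minus strand): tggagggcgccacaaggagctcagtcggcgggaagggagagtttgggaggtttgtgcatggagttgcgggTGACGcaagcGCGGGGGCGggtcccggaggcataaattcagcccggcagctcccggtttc

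In the 250 bases before the start, searched on both strands, a CRE half-site was found for all 7 genes, at 3 of the 5 start sites that the table lists for Egr2. Such a half-site is held by 17.8% of all 32851 listed promoters. Nr4a1 had 4 half-sites, Fos, Egr4 and Npas4 had 2 each, and Junb and Fosb had 1 each. The full CRE (TGACGTCA) was found in none of the 7 genes and in 1.55% of all promoters. The CArG box was found in this window in Egr2 among the 7 genes and in 1.47% of all promoters. Bases farther upstream were not searched, so this does not show that Fos or the other genes lack an SRF site. Nr4a1 and Fosb held an EGR site, which 4.7% of all promoters hold. The AP-1 site (TGANTCA), the motif bound by Fos and Jun proteins, was in none of the 7 and in 6.75% of all promoters. The full CRE contains the half-site, so the counts of these motifs overlap. These are matches of letters in a short window, and binding was not measured.

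Library totals ran from 9323607 to 15707516 counts. Markers of CA1 and subiculum neurons and of the dentate gyrus were present in every library, with summed levels of 492.1 to 871.9 CPM and 529.4 to 796.4 CPM (counts scaled to library size with TMM factors). The tissue taken differed between mice in choroid plexus, the epithelium of the ventricles that is not part of the hippocampus. All 10 choroid plexus markers passed the filter on low counts, and their summed level was 1306 to 6102 CPM in SES, 193 to 1435 CPM in SER, 90.8 to 6620 CPM in SS and 135 to 4621 CPM in C. Kcne2, Folr1 and Otx2 were each at 0 in at least 1 library, with all 3 at 0 in C mouse 8 and 1 of them at 0 in SS mouse 21. SS mouse 18, SES mouse 10 and C mouse 2 had the most. The nuclear RNA Malat1, which is retained in nuclei, had 3761 and 5257 CPM in SS mice 19 and 21 and 263 to 1974 CPM in the other 10 mice. Whether these differences between libraries have a part in the results was not tested beyond the values given beside them. In bulk tissue, fewer cells of a type and less RNA per cell cannot be told apart.

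Levels can be compared between genes only per length of transcript, and on that scale (CPM per kilobase, mean over 12 mice ± SD) Egr1 was the most abundant of the 10 genes at 35.1 ± 9.05, followed by Junb at 33.8 ± 7.54, Arc at 31.1 ± 11.6 and Egr3 at 29.3 ± 6.11. These 4 means differed from one another by less than their SDs over mice, which do not measure differences between genes within a mouse. The Egr3 value also depends on how its counts were divided among transcripts of 1509 and 3940 bases. Nr4a1 followed at 18.4 ± 4.35, Egr4 at 12.8 ± 3.34 and Fos at 7.71 ± 3.54. Fosb at 2.66 ± 0.725 and Npas4 at 2.31 ± 0.777 did not differ beyond their spread, and Egr2 was lowest at 1.12 ± 0.675.
The genes also differed in how far apart the mice lay. The highest mouse had 10.2 times the CPM of the lowest for Egr2, 9.56 times for Fos and 5.26 times for Npas4, against 3.31 times for Arc, 3.28 times for Fosb, 2.51 times for Egr1, 2.33 times for Egr4, 2.2 times for Nr4a1, 1.95 times for Junb and 1.84 times for Egr3. The SD within groups, pooled over the 4 groups on the log2 scale, was 0.765 for Egr2, 0.704 for Fos, 0.596 for Npas4 and 0.497 for Arc. The median gene had 0.197, and these 4 SDs stood at the 97.1, 96.1, 93.5 and 89.4 percentile of all genes tested. The members least spread within groups were Junb at 0.244 and Egr3 at 0.257.

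**Figure D1:**
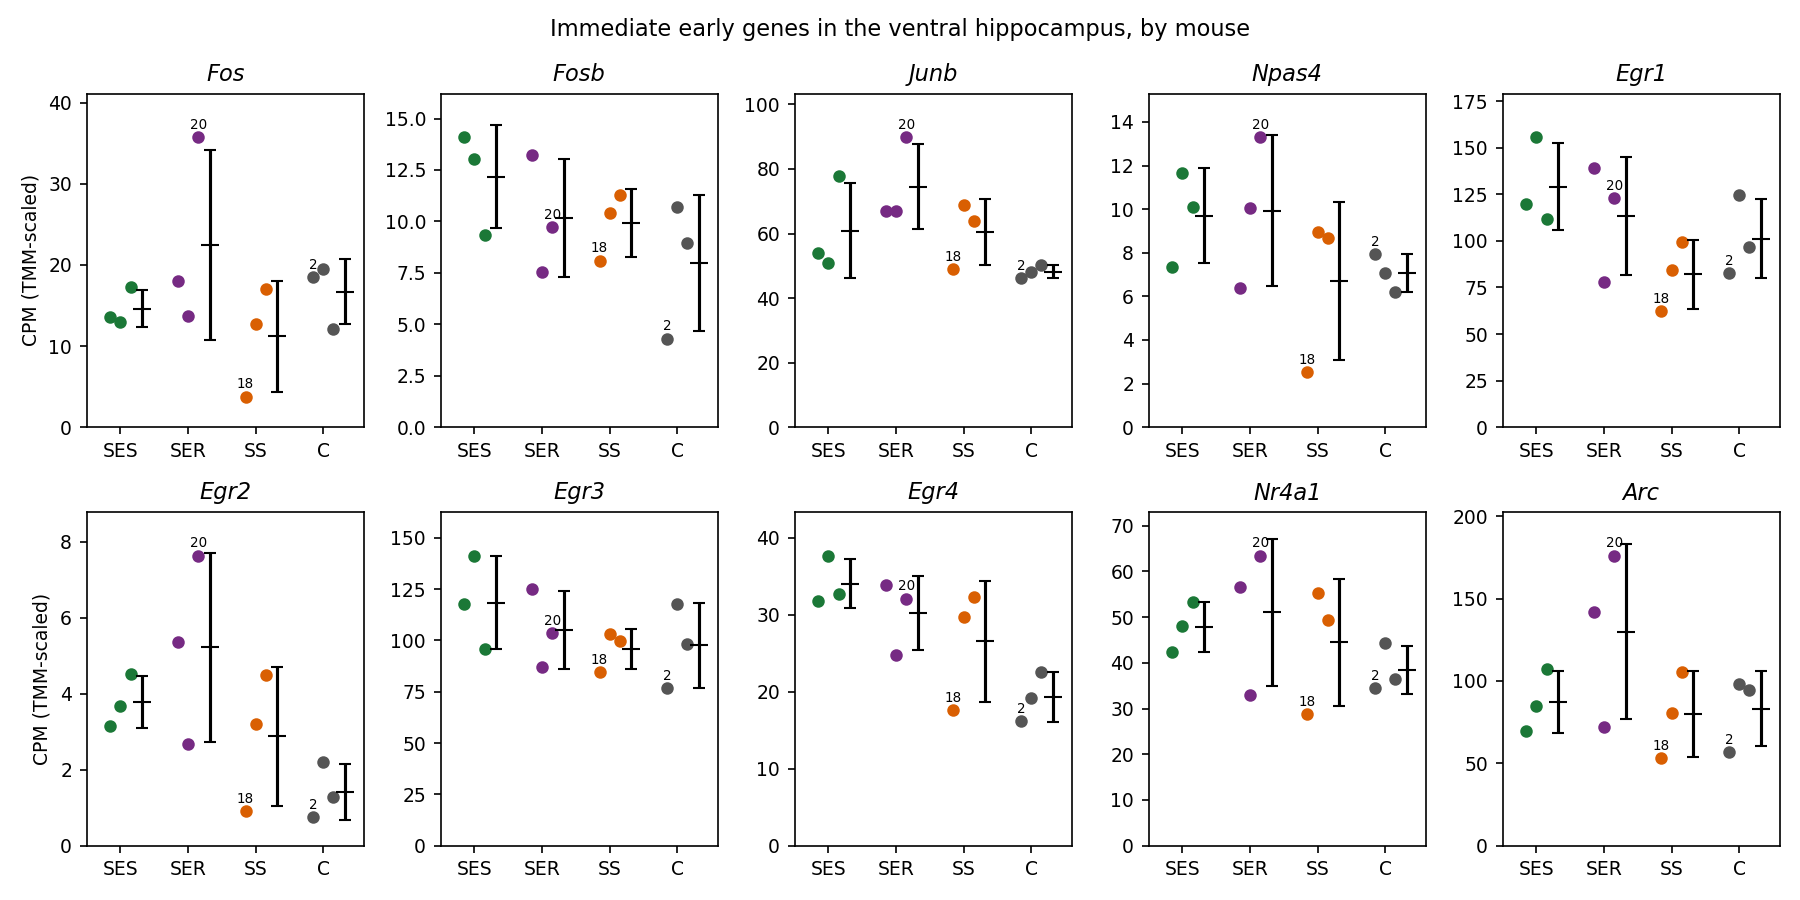
TMM-scaled CPM (y axis, from 0 and on its own scale for each gene) of the 10 immediate early genes in SES, SER, SS and C mice, with 1 point a mouse. SS mouse 18 is the lowest SS mouse in every panel, and for Egr4 all SES and SER mice lie above all C mice.

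Among the AP-1 genes, Fos encodes the partner that pairs with Jun proteins to make the AP-1 factor. Fos had 13.6, 12.99 and 17.2 CPM in SES mice 9, 10 and 12, 18.1, 13.7 and 35.8 CPM in SER mice 6, 19 and 20, 3.74, 12.8 and 17.1 CPM in SS mice 18, 19 and 21, and 18.5, 19.6 and 12.1 CPM in C mice 2, 8 and 12. SER mouse 20 was the highest and SS mouse 18 the lowest of the 12, with 328 and 37 raw counts, and the other 10 mice lay between 12.1 and 19.6 CPM, so that all 4 groups overlapped. Its log2 fold change was 0.98 ± 0.43 in SER against SS (edgeR adjusted p = 0.243), and 0.59 without SS mouse 18 or 0.50 without SER mouse 20. Against C, Fos differed by −0.20 ± 0.42 in SES, 0.42 ± 0.41 in SER and −0.57 ± 0.43 in SS, none of which passed the test. The SER value was −0.069 without SER mouse 20, and the SS value was −0.18 without SS mouse 18 and −0.99 without SS mouse 21.

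Fosb, whose truncated product ΔFosB is long-lived and builds up with repeated stimulation, had 14.1, 13.1 and 9.34 CPM in SES mice 9, 10 and 12, 13.3, 7.56 and 9.71 CPM in SER mice 6, 19 and 20, 8.09, 10.4 and 11.3 CPM in SS mice 18, 19 and 21, and 4.30, 10.7 and 8.93 CPM in C mice 2, 8 and 12. The lowest value was that of C mouse 2 and the groups overlapped. Fosb and its truncated form share 1 entry in these tables and cannot be told apart. Its log2 fold change was 0.60 ± 0.29 in SES against C (edgeR adjusted p = 0.33), and 0.31 without C mouse 2, and lay between 0.034 and 0.34 in the other comparisons.

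Junb, a Jun partner of Fos proteins, had 54, 50.9 and 77.8 CPM in SES mice 9, 10 and 12, 66.9, 66.9 and 89.9 CPM in SER mice 6, 19 and 20, 49, 68.9 and 63.8 CPM in SS mice 18, 19 and 21, and 46.2, 48.2 and 50.3 CPM in C mice 2, 8 and 12. The 3 C mice were close together and below all SES and all SER mice, while SS mouse 18 lay among them. The log2 fold change was 0.63 ± 0.17 in SER against C (edgeR adjusted p = 0.0899). It was 0.34 ± 0.17 in SES against C (adjusted p = 0.356), and 0.12 without SES mouse 12, and 0.33 ± 0.17 in SS against C (adjusted p = 0.232).

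Npas4 encodes a factor made almost only in neurons that responds to calcium entry and shapes inhibitory synapses. It had 7.36, 11.7 and 10.1 CPM in SES mice 9, 10 and 12, 6.39, 10.1 and 13.3 CPM in SER mice 6, 19 and 20, 2.53, 8.94 and 8.66 CPM in SS mice 18, 19 and 21, and 7.95, 7.07 and 6.18 CPM in C mice 2, 8 and 12. SS mouse 18, with 25 raw counts, was alone below 6 CPM, and the groups overlapped. Its fold changes were 0.51 ± 0.37 in SES and 0.54 ± 0.37 in SER against SS on the log2 scale (edgeR adjusted p = 0.679 and 0.469). Without SS mouse 18 they were 0.14 and 0.17.

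The Egr genes encode zinc finger factors that bind GC-rich sites, and Egr1 is the one most often measured after learning. Egr1 had 119.7, 155.8 and 111.8 CPM in SES mice 9, 10 and 12, 139, 77.8 and 123 CPM in SER mice 6, 19 and 20, 62.2, 84.3 and 99.5 CPM in SS mice 18, 19 and 21, and 82.7, 124.6 and 96.5 CPM in C mice 2, 8 and 12. All SES mice were above all SS mice, and SER and C mice overlapped with both. In SES against SS the log2 fold change was 0.65 ± 0.22 (edgeR adjusted p = 0.524), and 0.49 without SS mouse 18. In SER against SS it was 0.46 ± 0.22 (adjusted p = 0.293), and 0.295 without SER mouse 6.

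Egr2, which also drives myelination in peripheral nerve, was the least abundant member, with 8 to 70 raw counts a library. It had 3.15, 3.68 and 4.52 CPM in SES mice 9, 10 and 12, 5.36, 2.66 and 7.64 CPM in SER mice 6, 19 and 20, 0.910, 3.22 and 4.5 CPM in SS mice 18, 19 and 21, and 0.748, 2.21 and 1.29 CPM in C mice 2, 8 and 12. All SES and all SER mice were above all C mice, and SS mice 19 and 21 were too, while SS mouse 18 with 9 counts lay among the C mice. The log2 fold change was 1.38 ± 0.52 in SES against C (edgeR adjusted p = 0.236), 1.84 ± 0.53 in SER against C (adjusted p = 0.098) and 1.00 ± 0.54 in SS against C (adjusted p = 0.24). In SS against C it was 1.39 without SS mouse 18 (edgeR adjusted p = 0.034) and 0.55 without SS mouse 21 (adjusted p = 0.624).

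Egr3, a close relative of Egr1 needed for normal synaptic plasticity in mouse hippocampus, had 117.9, 141.4 and 96.1 CPM in SES mice 9, 10 and 12, 124.9, 87.2 and 103.7 CPM in SER mice 6, 19 and 20, 84.6, 103.2 and 99.7 CPM in SS mice 18, 19 and 21, and 76.7, 117.8 and 98.2 CPM in C mice 2, 8 and 12. The groups overlapped in all 6 comparisons, and the largest log2 fold change was 0.31 ± 0.18 in SES against SS (edgeR adjusted p = 0.616), which was 0.16 without SES mouse 10. The deposited counts divide the gene among 3 transcripts whose share swung widely between mice. One of them ran from 29 to 1136 counts and another from 0 to 190. Their split is thus uncertain, and the sum is used here except in the level per kilobase. Arc was divided between 2 transcripts that differ by 1 base in length.

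Egr4, another zinc finger factor of the family, had 31.7, 37.7 and 32.8 CPM in SES mice 9, 10 and 12, 33.9, 24.8 and 32.1 CPM in SER mice 6, 19 and 20, 17.6, 29.7 and 32.4 CPM in SS mice 18, 19 and 21, and 16.2, 19.2 and 22.6 CPM in C mice 2, 8 and 12. Every SES and SER mouse was above every C mouse, as were SS mice 19 and 21. The log2 fold change was 0.82 ± 0.20 in SES against C (edgeR adjusted p = 0.124), 0.64 ± 0.21 in SER against C (adjusted p = 0.124) and 0.46 ± 0.21 in SS against C (adjusted p = 0.162). In SS against C it was 0.67 without SS mouse 18 (edgeR adjusted p = 0.00703) and 0.30 without SS mouse 21 (adjusted p = 0.467). With Malat1 as a covariate the SS difference was −0.10.

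Nr4a1, an orphan nuclear receptor that limits dendritic spines in active neurons, had 42.4, 48.1 and 53.2 CPM in SES mice 9, 10 and 12, 56.7, 32.9 and 63.5 CPM in SER mice 6, 19 and 20, 28.8, 55.3 and 49.4 CPM in SS mice 18, 19 and 21, and 34.5, 44.4 and 36.5 CPM in C mice 2, 8 and 12. SS mouse 18 was again lowest and SER mouse 20 highest, and the groups overlapped. The largest log2 fold change was 0.40 ± 0.24 in SER against C (edgeR adjusted p = 0.403), which was 0.23 without SER mouse 20 and 0.64 without SER mouse 19.
Arc had 69.9, 84.9 and 107 CPM in SES mice 9, 10 and 12, 142.1, 71.9 and 176.2 CPM in SER mice 6, 19 and 20, 53.2, 80.5 and 105.4 CPM in SS mice 18, 19 and 21, and 56.9, 98.1 and 94.3 CPM in C mice 2, 8 and 12. SER mice 6 and 20 were above all other mice, while SER mouse 19 lay among the SS and C mice. In SER against SS the log2 fold change was 0.70 ± 0.31 (edgeR adjusted p = 0.256), and 0.49 without SS mouse 18 or 0.43 without SER mouse 20. In SES against SER it was −0.57 ± 0.31 (adjusted p = 1), with −0.30 without SER mouse 20 and −0.87 without SER mouse 19.

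None of the 10 genes was called at an adjusted p under 0.05 by edgeR's quasi-likelihood test in any of the 6 comparisons or in the test of the 4 groups together. In SES against SS, which asks what running went with in mice that improved, 0 of 10 genes were called beside 0% of all genes tested, and DESeq2 called none of the 9 genes it gave an adjusted p, beside 0.149% of all genes. It gave none to Egr2. At an unadjusted p under 0.05 edgeR gave 1 of 10, Egr1, beside 9.01% of all genes. Egr1 was also the 1 gene whose SES and SS mice did not overlap and was higher in SES, beside 6.33% of all genes that were higher in this way and 12.2% that did not overlap in either direction. All 10 log2 fold changes were above 0, beside 47.6% of all genes, with a median of 0.33 against −0.013 for all genes. That median was 0.053 without SS mouse 18.

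In SER against SS, the same question for mice that did not improve, 0 of 10 genes were called beside 0.0481% of all genes, and 0 by DESeq2 beside 4.16%. Unadjusted, 2 of 10 passed, Fos and Arc, beside 18.2% of all genes. None of the 10 had groups that did not overlap, beside 16.9% of all genes. All 10 log2 fold changes were again above 0, beside 47.3% of all genes, with a median of 0.38 against −0.017 for all genes. Without SS mouse 18 the median was 0.17. SES and SER were compared with the same 3 SS mice, so the 2 sets of values share whatever is particular to those mice.

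SES against SER, which sets mice that improved against mice that did not, gave 0 of 10 genes at an adjusted p under 0.05 by edgeR beside 0.0275% of all genes, 0 of 10 at an unadjusted p under 0.05 beside 3.72%, and 0 by DESeq2 beside 0.0413%. No gene had SES and SER mice that did not overlap, beside 10.8% of all genes. The log2 fold changes were above 0 in 4 of 10 genes, beside 50.7% of all genes, and their median was −0.057 against 0.0028 for all genes. It was 0.13 without SER mouse 20 and −0.18 without SER mouse 19. The widest were those of Fos at −0.61 ± 0.42, which was −0.12 without SER mouse 20, and Arc at −0.57 ± 0.31. For Egr4 the log2 difference of 0.17 ± 0.20 and for Npas4 that of −0.023 ± 0.36 were under 1 standard error, which does not show that the groups are alike.

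In SS against C, which sets stressed sedentary mice against untreated mice, 0 of 10 genes were called beside 9.83% of all genes, and 0 by DESeq2 beside 15.6%. Unadjusted, 1 of 10 passed, Egr4, beside 28.2% of all genes, and no gene had SS and C mice that did not overlap, beside 26.9%. The log2 fold changes were above 0 in 5 of 10 genes, beside 52.2% of all genes. The highest were Egr2, Egr4, Junb, Fosb and Nr4a1 at 1.00, 0.46, 0.33, 0.31 and 0.21, and the lowest were Fos at −0.57 and Egr1 at −0.30. Their median was 0.093, against 0.018 for all genes. It was 0.36 without SS mouse 18 and −0.020 without SS mouse 19, and with Malat1 as a covariate it was −0.24. Without SS mouse 18 edgeR called 2 of 10, Egr2 and Egr4, and 25.7% of all genes.

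SES and SER mice were also set against the untreated mice. In SES against C, 0 of 10 genes were called by edgeR beside 0.179% of all genes, and DESeq2 called 1, Egr4 (DESeq2 adjusted p = 0.0127), and 3.43% of all genes. Unadjusted, edgeR gave Egr2 and Egr4, 2 of 10 beside 16.2% of all genes. Egr2, Egr4 and Junb, 3 of 10, did not overlap and were higher in SES, beside 12.8% of all genes that were higher in this way and 26% that did not overlap in either direction. The median log2 fold change was 0.34 against 0.0027 for all genes, with 9 of 10 above 0 beside 50.5% of all genes.
In SER against C, 0 of 10 genes were called by edgeR beside 1.19% of all genes, and DESeq2 called 2, Junb (DESeq2 adjusted p = 0.018) and Egr4 (DESeq2 adjusted p = 0.0433), and 6.54% of all genes. DESeq2 gave no adjusted p for Egr2 in these 2 comparisons. Unadjusted, edgeR gave Junb, Egr2 and Egr4, 3 of 10 beside 18.6% of all genes. The same 3 genes did not overlap and were higher in SER, beside 12.6% of all genes that were higher and 25.3% in either direction. The median was 0.45 against −0.0082 for all genes, with 10 of 10 above 0 beside 48.8% of all genes. Without SS mouse 18, which enters these comparisons through the shared estimate of the spread, edgeR called Egr4 in SES against C (adjusted p = 0.013), 1 of 10 beside 3.71% of all genes. In SER against C it then called Junb (edgeR adjusted p = 0.0364), Egr2 (adjusted p = 0.0253) and Egr4 (adjusted p = 0.0267), 3 of 10 beside 5.39%. SES, SER and SS were all compared with the same 3 C mice.
In the test of the 4 groups together, edgeR called 0 of 10 genes beside 0.206% of all genes, and DESeq2 called 2, Egr2 and Egr4, beside 13.3%. Unadjusted, edgeR gave 3 of 10, Egr4 (edgeR adjusted p = 0.107), Junb (adjusted p = 0.151) and Egr2 (adjusted p = 0.154), beside 23.8% of all genes.

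**Figure D2:**
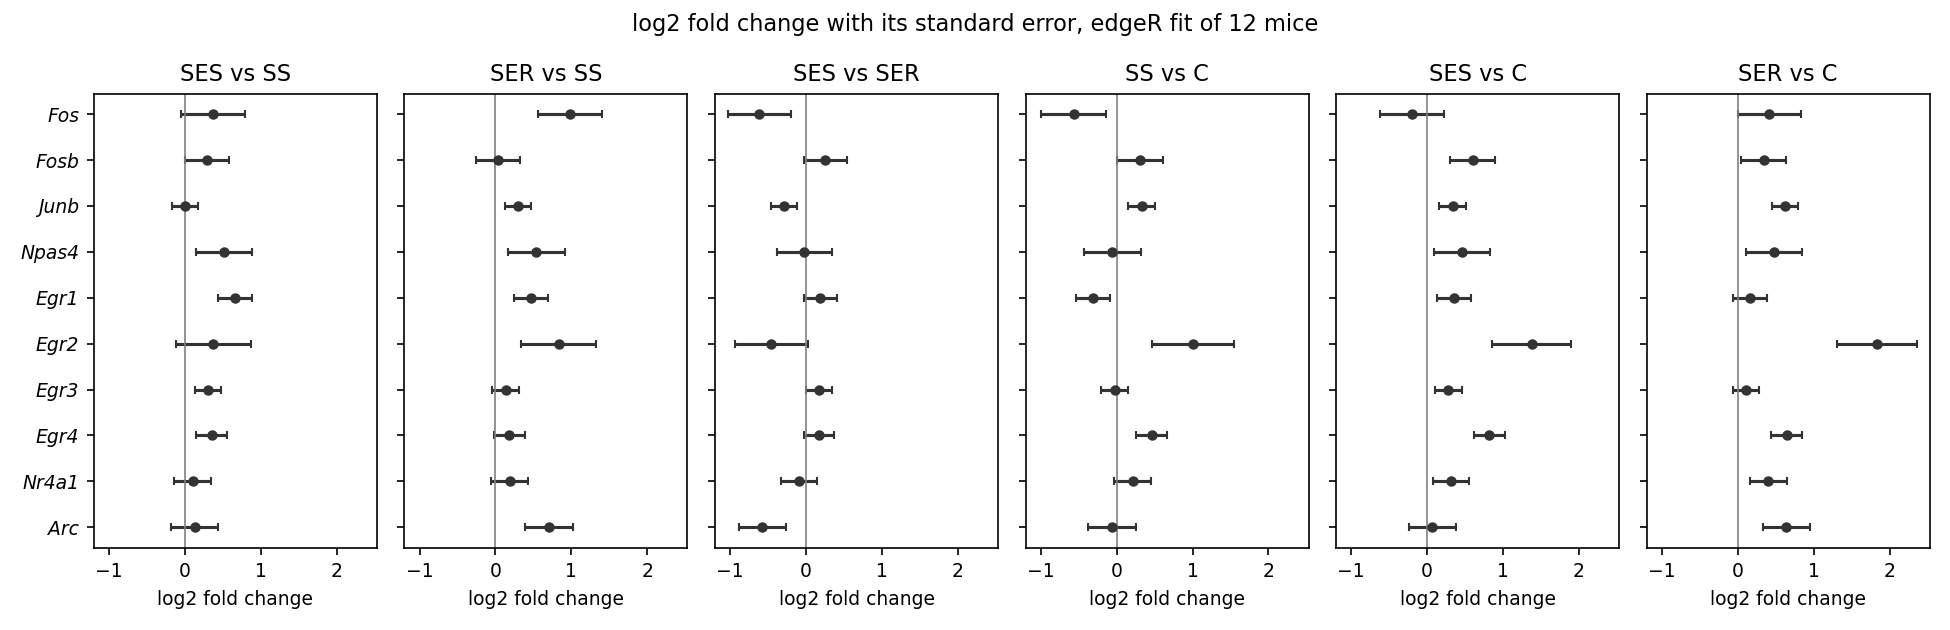
log2 fold change (x axis) of each immediate early gene (rows) with its standard error (bars) from the edgeR fit of 12 mice, in the 6 comparisons. All 10 points lie above 0 in SES against SS, SER against SS and SER against C, and none was called at an adjusted p under 0.05.

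Over the 12 mice the genes tended to move together, inside groups as well as over all mice, and less so without SS mouse 18 and C mouse 2. The lowest of the 12 mice was SS mouse 18 for Fos, Egr1, Arc, Nr4a1 and Npas4 and C mouse 2 for Fosb, Junb, Egr2, Egr3 and Egr4, so 1 of these 2 mice was lowest for all 10 genes, beside 18% of all genes. The highest was SER mouse 20 for Fos, Junb, Egr2, Arc, Nr4a1 and Npas4, 6 of 10 genes beside 8.23% of all genes. It was SES mouse 10 for Egr1, Egr3 and Egr4, 3 of 10 beside 5.1%, and SES mouse 9 for Fosb, 1 of 10 beside 3.08%. Within groups, SS mouse 18 was the lowest SS mouse for 10 of 10 genes, beside 41.1% of all genes. C mouse 2 was the lowest C mouse for 8 of 10 beside 34.4%, and SER mouse 19 the lowest SER mouse for 8 of 10 beside 35.1%. These mice were singled out after their values were seen. The median deviation of the 10 genes from their 12-mouse means, on the log2 scale, was 0.059, 0.41 and 0.26 in SES mice 9, 10 and 12, 0.35, −0.17 and 0.55 in SER mice 6, 19 and 20, −0.67, 0.13 and 0.19 in SS mice 18, 19 and 21, and −0.40, 0.066 and −0.24 in C mice 2, 8 and 12. By this measure SES mice were all above the mean, while SER, SS and C mice lay on both sides of it.

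**Figure D3:**
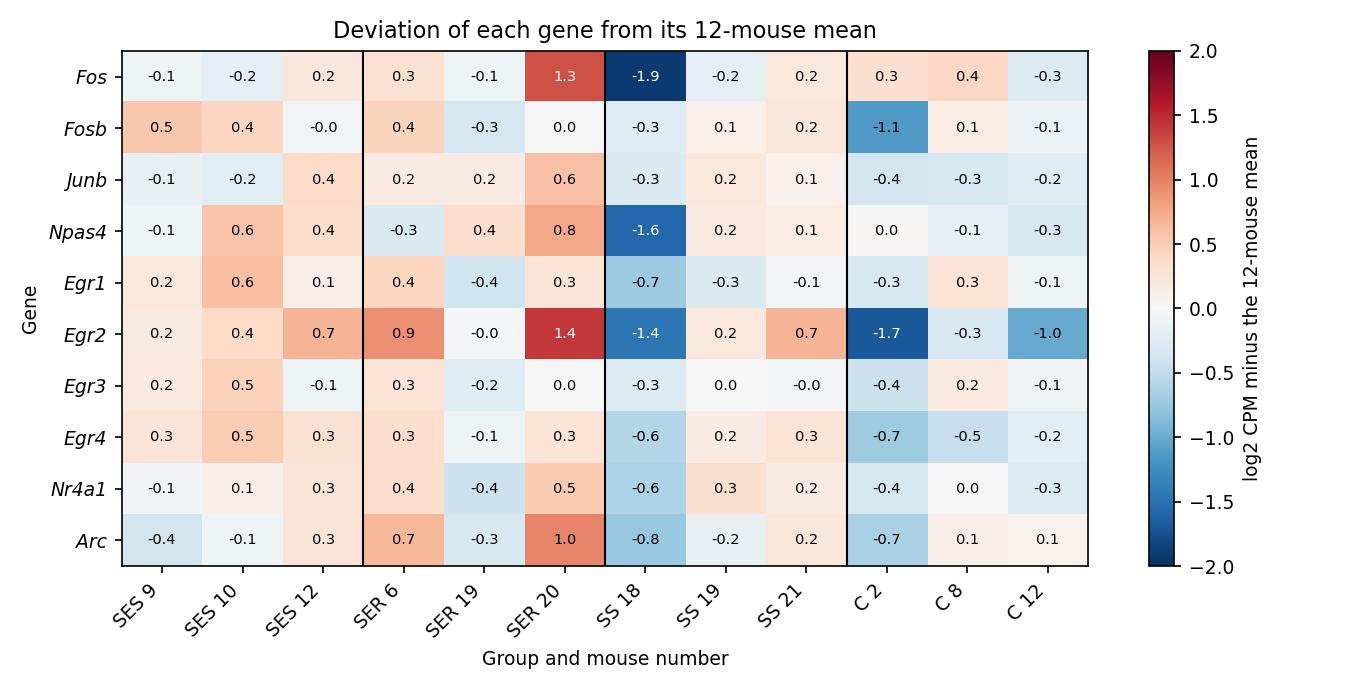
Deviation of log2 CPM from the 12-mouse mean (colour and printed value) for the 10 immediate early genes (rows) in each mouse (columns, by group and mouse number). The column of SS mouse 18 is negative in every row, and that of SER mouse 20 is at or above 0 in every row.

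Over the 12 mice all 45 pairs of the genes had a positive Pearson r of log2 CPM, from 0.0365 to 0.885, with a median of 0.623 and a median Spearman rho of 0.559. The median over all pairs of genes tested was −0.002, and 4.88% of those pairs were at or above the members' median. All pairs come from the same 12 libraries, with their depth and tissue makeup, and are not independent. By permutation of mice, 23 pairs passed at an adjusted p under 0.05 over the 45 pairs, 8 pairs passed by Spearman's rho, and 29 had an unadjusted p under 0.05 for r. Leaving out the 2 mice farthest from the median of the first gene of each pair lowered the median r to 0.459, and 6 of the 23 pairs then had r under 0.5. Without SS mouse 18 the median r was 0.502 with 39 pairs positive, and 11.5% of all gene pairs were at or above it. Without SS mouse 18 and C mouse 2 the median r was 0.406 with 38 positive, and 18.5% of all gene pairs were at or above it.

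The 4 pairs with the highest r were among Egr genes, or between an Egr gene and Fosb or Nr4a1. Egr2 and Egr4 had r = 0.885 and rho = 0.874 (permutation p = 0.00029, adjusted p = 0.00326), and r = 0.732 without C mouse 2 and SS mouse 18. Fosb and Egr3 had r = 0.874 and rho = 0.909 (permutation p = 7e-05, adjusted p = 0.00315), and r = 0.903 without C mouse 2 and SES mouse 9. Egr2 and Nr4a1 had r = 0.873 and rho = 0.888 (permutation p = 0.0002, adjusted p = 0.00326), and r = 0.808 without C mouse 2 and SS mouse 18. Egr1 and Egr3 had r = 0.867 and rho = 0.895 (permutation p = 0.00028, adjusted p = 0.00326), and r = 0.818 without SES mouse 10 and SS mouse 18. For rho the permutation p was 0.00059 for Egr2 and Egr4 (adjusted p = 0.00664), 9e-05 for Fosb and Egr3 (adjusted p = 0.00405), 0.0003 for Egr2 and Nr4a1 and 0.00023 for Egr1 and Egr3 (adjusted p = 0.0045 for both). The relation of these pairs thus held without the 2 farthest mice. Fos and Npas4 did not behave so. Their r of 0.808 (permutation p = 0.0102, adjusted p = 0.0384) came with a rho of 0.343 (permutation p = 0.273, adjusted p = 0.357) and was −0.21 without SER mouse 20 and SS mouse 18, so it rests on these mice. The lowest were Junb with Egr3 at r = 0.0365, rho = 0.175 (permutation p = 0.909, adjusted p = 0.909 for r and permutation p = 0.584, adjusted p = 0.699 for rho), and Fos with Fosb at r = 0.0698, rho = 0.0629 (permutation p = 0.804, adjusted p = 0.822 for r and permutation p = 0.851, adjusted p = 0.87 for rho), although Fos and Fosb are close relatives. Without the 2 farthest mice their r was 0.123 and −0.223.

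With group means removed the median r was 0.645, 42 of 45 pairs were positive and 5.52% of all gene pairs were at or above that median. Without SS mouse 18 the median was then 0.531, with 10.4% of all gene pairs at or above it. Without SS mouse 18 and C mouse 2 it was 0.48, with 15.6%. The exact permutation test within groups has 1296 arrangements and cannot give less than 0.000772. By it 5 pairs passed at an adjusted p under 0.05, and 20 at an unadjusted p under 0.05. The highest were Egr2 with Nr4a1 (r = 0.916, exact p = 0.00386, adjusted p = 0.0434), Egr2 with Arc (r = 0.914, exact p = 0.000772, adjusted p = 0.0347), Fosb with Egr3 (r = 0.905, exact p = 0.00309, adjusted p = 0.0434), Egr1 with Egr3 (r = 0.882, exact p = 0.00231, adjusted p = 0.0434) and Arc with Nr4a1 (r = 0.88, exact p = 0.0054, adjusted p = 0.0486). No pair passed in any leave-one-out fit except 3 pairs without SS mouse 19 and 3 without SS mouse 21. With a mouse left out there are fewer arrangements and the smallest possible p is higher. These counts therefore cannot show whether the pairs depend on the mouse left out.

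**Figure D4:**
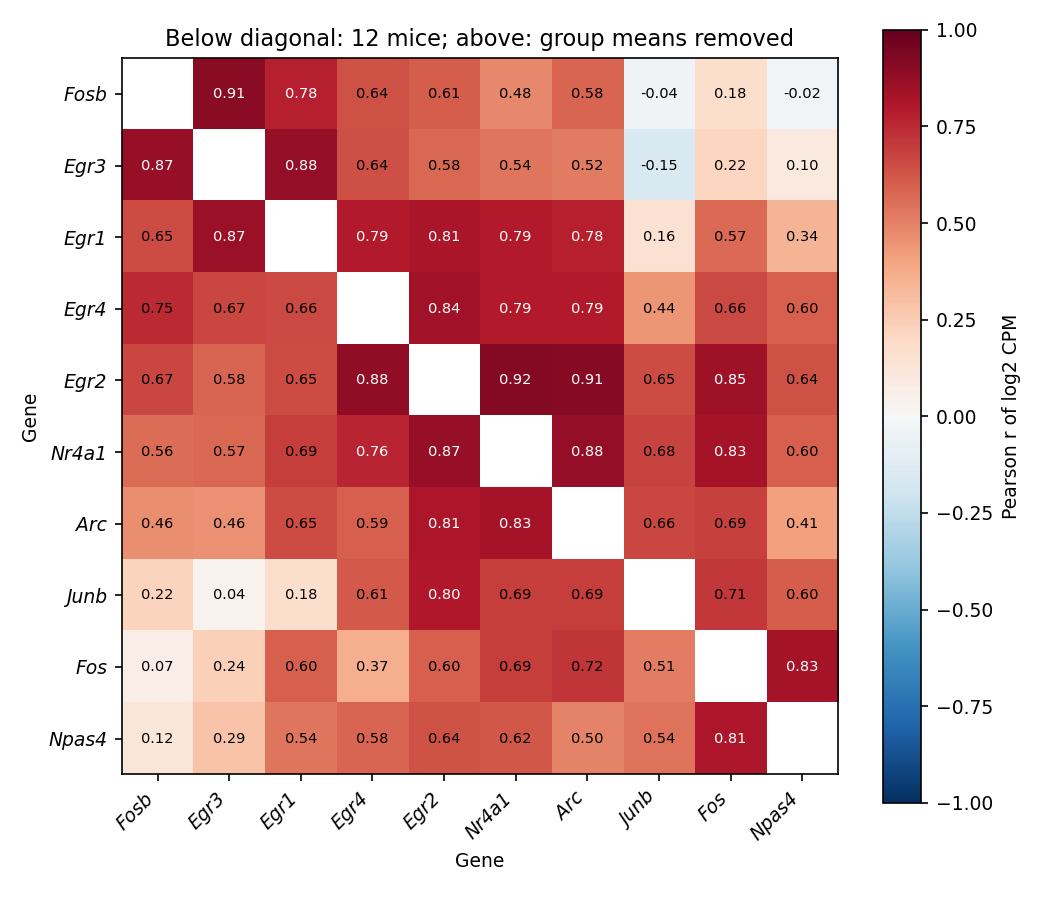
Pearson r of log2 CPM (colour and printed value) for each pair of immediate early genes, over 12 mice below the diagonal and with group means removed above it. Every value below the diagonal is positive, and the lowest are those of Junb with Egr3 and Fos with Fosb.

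Other tested genes were ranked by their mean r with the 10 genes over the 12 mice. Predicted genes (Gm and Rik symbols), microRNAs and small nucleolar and Cajal body RNAs were left out of the ranking. The highest was Tacc1, at 0.715, followed by Cpeb2 at 0.69, Tmem106a at 0.686, Ikzf5 at 0.683, Ralgapa1 at 0.682, Dlgap4 at 0.678, Med13l at 0.677, Znrf1 at 0.677, Bhlhe40 at 0.676 and Dzip1 at 0.675. Without SS mouse 18 and C mouse 2 they had 0.529, 0.544, 0.472, 0.541, 0.543, 0.495, 0.513, 0.516, 0.412 and 0.454, in that order. Their ranks then ran from 17 for Cpeb2 to 489 for Bhlhe40. Tacc1 had 166, 176 and 167 CPM in SES mice 9, 10 and 12, 186, 160 and 177 CPM in SER mice 6, 19 and 20, 122, 158 and 175 CPM in SS mice 18, 19 and 21, and 123, 153 and 123 CPM in C mice 2, 8 and 12. With group means removed the highest were Atn1 at 0.762, Klf10 at 0.752, Fam78a at 0.743, Zfp623 at 0.741 and Rtl1 at 0.741. With group means kept, these had 0.558, 0.238, 0.57, 0.395 and 0.345 over the 12 mice, in that order. Without SS mouse 18 they had 0.593, 0.0684, 0.422, 0.0271 and 0.217. These values describe shared movement over 12 mice and carry no test.

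Some other genes of the activity pathway were called, with counts in SS against C that did not stand out from the 9.83% of all genes called. The calls in that comparison depended on the fit. In SS against C edgeR called 0% of all genes without SS mouse 19, without SS mouse 21 and without C mouse 8. The share was also 0% in a fit of the 2 groups alone and with Malat1 as a covariate. Of 24 other early response genes, 23 were tested and the clock gene Per1 was the 1 called, higher in SS against C (0.78 ± 0.17 on the log2 scale, edgeR adjusted p = 0.0233). The list median in SS against C was 0.060, against 0.018 for all genes, and 9.83% of all genes were called. Against SS this list was more divided than the 10 members. In SES against SS 13 of 23 were above 0 beside 47.6% of all genes, with a median of 0.071. At an unadjusted p under 0.05 edgeR gave 1 higher and 2 lower. In SER against SS 15 of 23 were above 0 beside 47.3%, with a median of 0.11, and 2 were higher and 2 lower unadjusted. Of 15 genes listed here as late response genes, Rgs2 (−0.62 ± 0.15, edgeR adjusted p = 0.0285) and Rasgrp1 (−0.56 ± 0.15, adjusted p = 0.035) were lower in SS against C, 2 of 15 beside 9.83% of all genes. In SES against SS 0 of 15 were called by edgeR, 2 had an unadjusted p under 0.05 beside 9.01% of all genes, and 15 of 15 had a log2 fold change above 0 beside 47.6%, with a median of 0.28. In SER against SS 0 were called, 4 had an unadjusted p under 0.05 beside 18.2% of all genes, and 11 of 15 were above 0 beside 47.3%, with a median of 0.13. Bdnf, the late gene for a growth factor of synapses, had 49.5, 57.2 and 52.3 CPM in SES mice 9, 10 and 12, 52.5, 50.4 and 50.6 CPM in SER mice 6, 19 and 20, 41.3, 38.9 and 39.9 CPM in SS mice 18, 19 and 21, and 45.1, 44 and 53.8 CPM in C mice 2, 8 and 12. All SES and SER mice were above all SS mice, with log2 fold changes of 0.40 ± 0.099 in SES against SS (edgeR adjusted p = 0.524) and 0.36 ± 0.10 in SER against SS (adjusted p = 0.122). The 20 upstream regulators had 3 called in SER against C, all higher, beside 1.19% of all genes, and 2 called in SS against C, both higher, beside 9.83%. The 3 in SER against C were Camk2a, the calcium-calmodulin kinase (0.63 ± 0.092, edgeR adjusted p = 0.0119), Crebbp, the CREB-binding co-activator (0.86 ± 0.16, adjusted p = 0.0337), and Crtc1, a CREB co-activator (0.42 ± 0.089, adjusted p = 0.042). Crebbp (0.65 ± 0.16, edgeR adjusted p = 0.0289) and Crtc1 (0.39 ± 0.089, adjusted p = 0.0262) were the 2 called in SS against C.

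Marker levels of the libraries stand beside these values. SS mouse 18 and C mouse 2, the mice lowest for the 10 genes, had 6620 and 4621 CPM of summed choroid plexus markers, and SES mouse 10, among the highest for Egr1, Egr3 and Egr4, had 6102 CPM. SER mouse 20, highest for 6 genes, had 215 CPM. SS mouse 18 also had the lowest summed CA1 and subiculum markers, 492 CPM, and SS mice 19 and 21 had 713.5 and 585.1 CPM. Its oligodendrocyte markers were the highest of the 12 mice at 10840 CPM, against 3599 and 3472 CPM in SS mice 19 and 21, and C mice 2 and 12 had 7867 and 9672 CPM. Its CA2 and CA3 markers were also highest at 1090 CPM, with 573.8 to 935.4 CPM in the other mice. Astrocyte markers ran from 8718 to 10010 CPM in SER mice, above all other mice, with 6661 to 8207 CPM in SES, 6105 to 6783 CPM in SS and 6294 to 7052 CPM in C. Their part in the results was not tested. Thalamus markers, from tissue next to the hippocampus, were highest in C mouse 2 and SS mouse 18, with 385.4 and 296.5 CPM, and ran from 110.7 to 204.3 CPM in the other mice. All 7 of them were detected in every library. A fit was also made with the mean log2 CPM of the 10 choroid plexus markers, and not their summed level, as a covariate. In it the members' median log2 fold change was 0.66 in SES against SS, 0.28 in SES against SER and 0.65 in SES against C. In SES against C, Egr2 (edgeR adjusted p = 0.0217) and Egr4 (adjusted p = 0.014) then passed, 2 of 10 beside 0.475% of all genes. In SER against C, Junb (edgeR adjusted p = 0.0441), Egr2 (adjusted p = 0.0156) and Egr4 (adjusted p = 0.0309) then passed, 3 of 10 beside 2.6%. With Malat1 as the covariate the median was 0.14 in SES against C, 0.19 in SER against C and −0.24 in SS against C. In that fit edgeR called none of the 10 genes, beside 0.0344%, 0.66% and 0% of all genes in these comparisons, in that order.

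**Figure D5:**
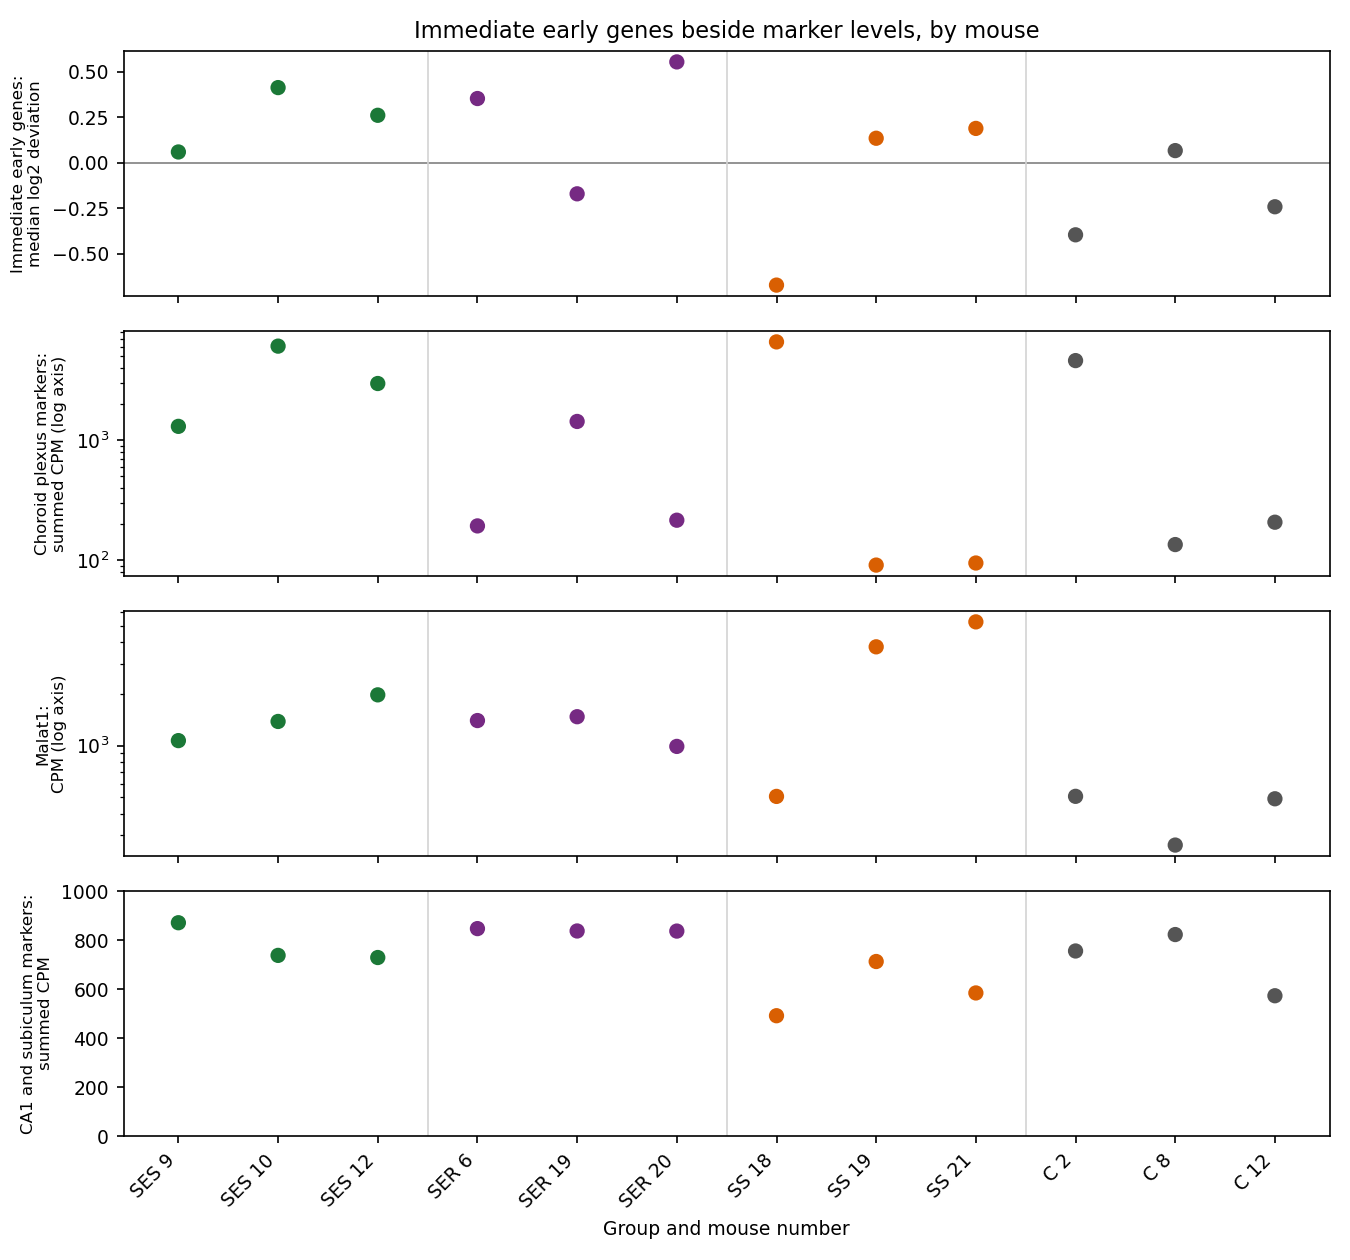
By mouse (x axis, by group and mouse number), from top to bottom, the median log2 deviation of the 10 immediate early genes, summed choroid plexus markers (CPM, log axis), Malat1 (CPM, log axis) and summed CA1 and subiculum markers (CPM). SS mouse 18 is lowest in the top panel at −0.67 and highest for choroid plexus markers at 6620 CPM, while SES mouse 10 is high in both.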

How the data were processed

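Ventral hippocampal RNA of 12 mice was extracted with Trizol and made into NEBNext Ultra II Directional libraries, per the labels' protocols. The authors deposited 1 table per mouse of whole-number estimated counts (expected counts) for 33299 RefSeq transcripts, not normalized. TopHat and mm10 were used, per the submitters' processing notes. How reads were counted, with which strand setting and annotation release, is not given in the sources used here. Reads of overlapping or antisense genes thus cannot be told apart. No label says whether animals were pooled, so p-values measure the spread between these libraries.

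Counts were summed per symbol, and genes below filterByExpr's minimum count of 10 were removed. The TMM factors of the libraries were 0.97 to 1.039. edgeR 4.0.16 (R 4.3.3) gave quasi-likelihood F tests from 1 fit of 12 libraries with 8 residual degrees of freedom. Benjamini-Hochberg adjustment ran over the 14541 genes tested, with calls at 0.05. Each log2 fold change has a standard error obtained from its F value. Correlations used log2 CPM with a prior count of 2, with 100000 permutations of mice. The procedure was tested on simulated data in which all genes had the same spread. That test thus does not show how well changes of the more widely spread members would be found. A count of 0 allows 3 counts, which is 0.189 to 0.327 CPM, for counting error only.

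Alternatives were DESeq2 1.42.0, other size factors and filters, transcripts as deposited, fits of 2 groups, covariates and each mouse left out. The members, the 15 other gene lists and the tests were chosen with earlier results of these data known. Genes named beyond the 10 were those of each list called in any comparison, up to 4, or else the 2 with the smallest p of the 4-group test, always Bdnf, Malat1 and Ttr, and the 10 and 5 genes most correlated with the members over mice. The text gives a selection of them. Promoter sequences and gene positions are from RefSeq tables of GRCm38.p6.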

Additional observations from a re-analysis of the deposited data

How the results depend on the processing

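The count of called members was 0 in all 6 comparisons and in the 4-group test, and it stayed at 0 in SES against SS, SER against SS and SES against SER under every alternative. Without SS mouse 18 edgeR called 8.69% of all genes in SES against SS, 16.5% in SER against SS and 0.0271% in SES against SER. Without C mouse 2 and SS mouse 18 the shares were 9.71%, 17.5% and 0.0272%. Each count below stands beside the share of all genes called in the same fit. DESeq2 called 1 in SES against C (3.43%), 2 in SER against C (6.54%) and 2 in the 4-group test (13.3%; Egr2 with a DESeq2 adjusted p of 0.0415 and Egr4 with 0.0187). A fit of the 2 groups alone called 1 in SES against C (1.12%; Egr4, edgeR adjusted p = 0.0289) and 1 in SER against C (1.99%; Junb, edgeR adjusted p = 0.0397). With each mouse left out the count ran from 0 to 1 in SES against C, 0 to 3 in SER against C, 0 to 2 in SS against C and 0 to 3 in the 4-group test, with all of these calls arising without SS mouse 18 (3.71%, 5.39%, 25.7% and 23.2% of all genes in these 4). Without C mouse 2 and SS mouse 18 it was 1 in each of these 4 (6.31%, 5.41%, 24.8% and 22.8%). With the choroid plexus covariate it was 2 in SES against C (0.475%), 3 in SER against C (2.6%) and 2 in the 4-group test (4.92%). The causes were not tested. DESeq2 gave Egr2 no adjusted p in 3 comparisons. Of the other 1257 single-gene values under alternatives, 1183 kept their direction and side of the threshold, 19 became called, 55 changed sign while not called, and 0 called values reversed. Medians over the members ranged from 0.053 to 0.66 in SES against SS, 0.17 to 0.49 in SER against SS, −0.18 to 0.28 in SES against SER, −0.24 to 0.36 in SS against C, 0.14 to 0.65 in SES against C and 0.19 to 0.66 in SER against C. Pairs of members correlated at an adjusted p under 0.05 numbered 23, with 8 to 21 when 1 mouse was left out and 4 without C mouse 2 and SS mouse 18. With group means removed they numbered 5, with 0 to 3 when 1 mouse was left out and 0 without C mouse 2 and SS mouse 18. Fewer mice also leave fewer arrangements for the permutation test. No paired analysis was made, since each library belongs to 1 group and the labels match no mice between groups. A mouse number that recurs in 2 groups was not taken as a pairing. With 3 mice a group, a change of Egr2 with 8 to 70 counts is measured less exactly than one of Egr1.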
